A study of Mus musculus with 16 samples.

Results

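A set of 10 imprinted genes of growth and cell cycle control was examined in the mouse ovary, namely Cdkn1c, H19, Igf2, Peg3, Plagl1, Dlk1, Meg3, Grb10, Mest and Ndn. Its members were taken by gene name, 10 of the 55426 genes in the deposited table, and all 10 were among the 18833 genes with enough counts to be tested. The names were proposed with results of these data known, and Cdkn1c and H19 stand for the set. For both, the treatment contrasts are therefore given as values with their error and without a test.

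An imprinted gene is transcribed mainly from the copy inherited from 1 parent, as set by DNA methylation laid down in the egg or sperm. In mice many maternally expressed imprinted genes restrain growth and many paternally expressed ones promote it. Several of them lie in clusters that share a control region, among them the pairs H19 with Igf2 and Meg3 with Dlk1. The deposited values are sums over both parental copies, so nothing below speaks of which copy was transcribed.

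The ovaries came from female C57BL/6NHsd mice, an inbred strain, 1 ovary being taken from each of 16 mice in diestrus, 4 mice to a group. The On T mice had been injected under the skin every week for 6 weeks with 0.9 mg of testosterone enanthate, an ester that releases the hormone slowly, and were 16 weeks old. Their controls (Control for On T) received sesame oil only and were of the same age. The Post T mice had the same 6 weeks of testosterone, which was then stopped, and were collected 4 cycles after cycling resumed, at 24 to 28 weeks of age. Their own controls (Control for Post T), given sesame oil, were also 24 to 28 weeks old. The design models testosterone therapy during and after its use, and a whole ovary is a mixture of cell types.

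RNA was selected by its poly(A) tail, and the libraries held 26598055 to 52659637 expected counts, the read counts estimated per gene. Markers of granulosa cells and oocytes were found in every library, with summed levels of 1699 to 5611 and 105 to 261 TPM, the authors' measure of transcript abundance scaled for length and library size. Between the treated mice and their controls the summed markers of other cell types differed. The 6 macrophage markers summed to 838 to 1162 TPM in Post T against 85.9 to 162 in its controls, and to 112 to 199 in On T against 48.9 to 75.6 in its controls. In On T only 3 of these 6 had a positive log2 fold change. The 6 luteal markers, of the gland that forms after ovulation, summed to 1077 to 2535 TPM in Post T against 3102 to 5427 in its controls, and to 499 to 1776 in On T against 3888 to 4720 in its controls. Cyp11a1 made up most of each treated sum, at 926 to 2042 TPM in Post T and 432 to 1580 in On T. The log2 fold changes of the 6 ran from -9.39 to -0.02 in Post T, where Lhcgr overlapped its controls. No gene of these 2 lists was at 0 in any library. On T replicate 2 stood apart on the third principal component and Control for Post T replicate 1 on the fourth. On T replicate 2 had the highest level of its group for 7 of the 10 genes, and Control for Post T replicate 1 had the lowest of its group for 7 of the 10. In bulk RNA, fewer cells of a type and less RNA per cell cannot be told apart, and the part of cell mixture in the differences below was not tested.

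Cdkn1c, which encodes the cyclin-dependent kinase inhibitor p57Kip2 and is expressed from the maternal copy, stood far above its controls after testosterone was stopped. The gene (ENSMUSG00000037664) is protein-coding and lies on the minus strand at chr7:143458339-143461050 of GRCm38. In Post T libraries 1 to 4 its level was 251, 252, 361 and 192 TPM, against 18.7, 21.3, 22.5 and 25.4 TPM in their controls. In On T libraries 1 to 4 it was 35.9, 29.4, 26.7 and 37.8 TPM, against 13.8, 23.0, 11.8 and 19.99 TPM in their controls. Both treated groups lay wholly above their own controls, and the lowest Post T library, at 192 TPM, lay well above the highest On T library, at 37.8 TPM.

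Group means were 264 ± 70.5 TPM in Post T and 21.98 ± 2.76 TPM in its controls (SD, n = 4 each). They were 32.4 ± 5.29 TPM in On T and 17.2 ± 5.20 TPM in its controls (SD, n = 4 each). On the scale of counts the log2 fold change was 3.69 in Post T (SE 0.23, 95% interval 3.20 to 4.18) and 0.91 in On T (SE 0.22, 95% interval 0.46 to 1.37), each against its own controls. The Post T effect exceeded the On T effect by 2.77 on the log2 scale (SE 0.31). The level of Cdkn1c thus ran in the order Post T, On T, older controls, younger controls. In TPM the 4 On T libraries (26.7 to 37.8) lay above the 4 older controls (18.7 to 25.4), which differ from them in age as well. In CPM (counts scaled to library size) these groups overlapped, with On T replicate 3 at 18.6 and Control for Post T replicate 4 at 20.2. The older and the younger controls overlapped (log2 0.40, SE 0.22, edgeR adjusted p = 0.569). These were the values with all libraries in the fit. With On T replicate 2 and Control for Post T replicate 1 left out the log2 fold changes were 3.68 in Post T and 0.94 in On T.

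The Post T mice differed in age, and their 4 values are shown here by age only to describe their spread. The 24-week mouse had 192 TPM of Cdkn1c, the 26-week mice 251 and 252 TPM, and the 28-week mouse 361 TPM. In the older controls the 24-week mouse had 18.7 TPM, the 26-week mice 21.3 and 25.4 TPM and the 28-week mouse 22.5 TPM. With 1 or 2 mice per age no trend was tested. An annotated antisense transcript, Gm44732, overlaps 30.7% of the exon bases of Cdkn1c on the other strand, but it held only 0 to 15 counts per library.

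**Figure D1:**
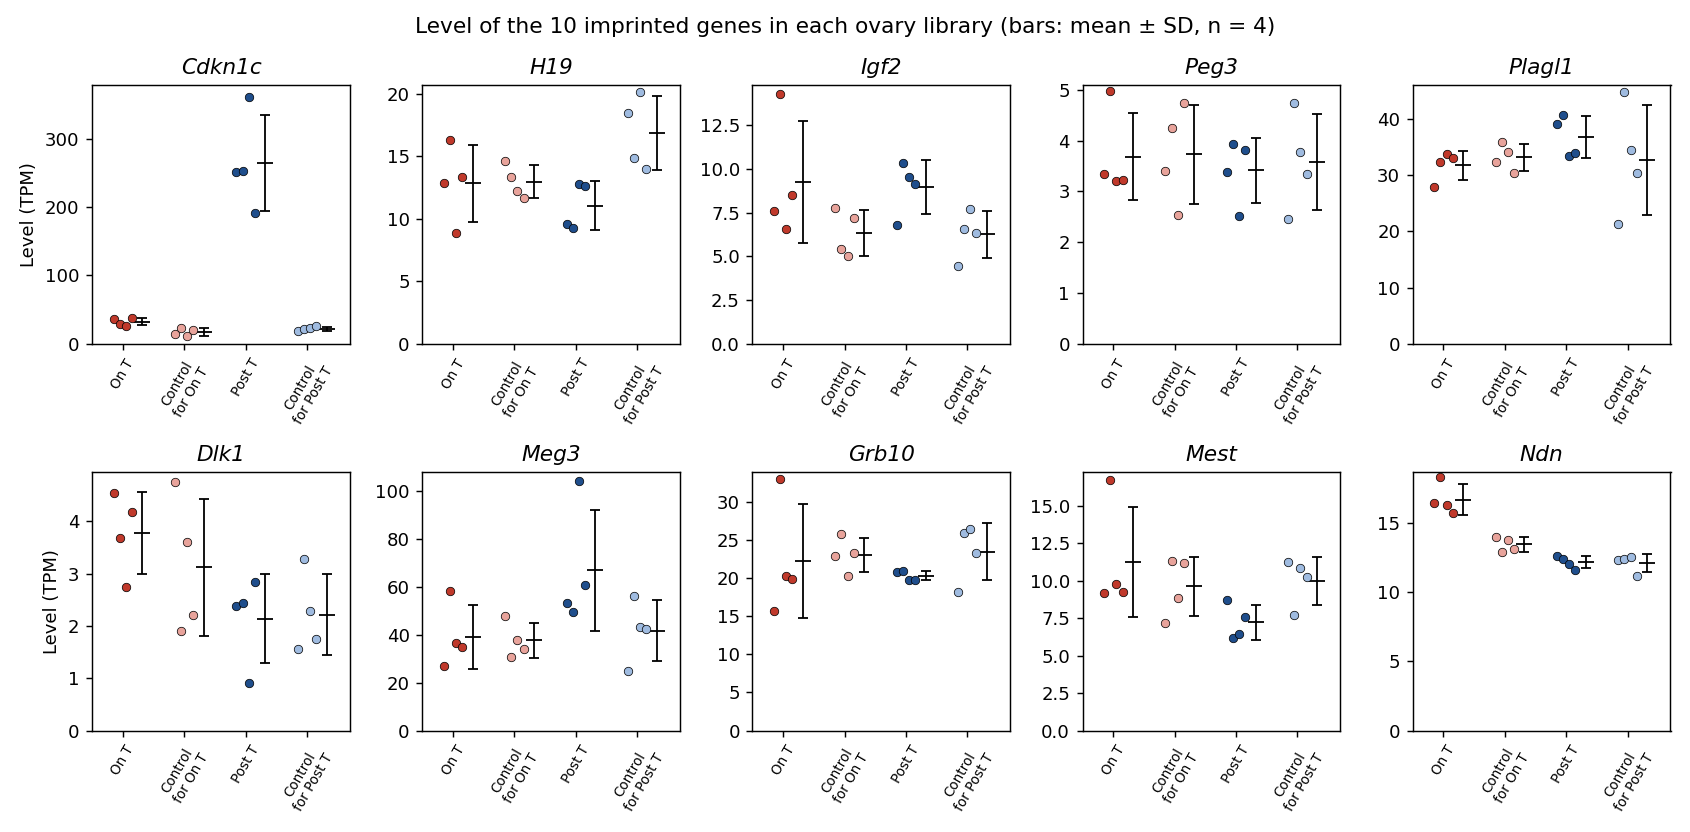
Level of each of the 10 genes in TPM, with 1 panel per gene and 1 point per ovary, each treated group left of its controls. The bars are the mean ± SD of 4 libraries. Cdkn1c spans 192 to 361 TPM in Post T and 11.8 to 37.8 TPM in the other 12 libraries, while most panels show groups that overlap.

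The change of Cdkn1c moved its place among the 10 genes. On the TPM scale, which allows for gene length, its rank from the highest was 1 in every Post T library and 3 or 4 in their controls. In the On T group its rank lay between 1 and 4, against 4 to 6 in the controls. The 10 genes together summed to 433 ± 90.0 TPM in Post T and 171 ± 27.5 TPM in its controls (SD, n = 4 each). Without Cdkn1c the same sums were 169 ± 21.8 TPM in Post T and 149 ± 26.5 TPM in its controls. Most of the gap between those groups was therefore in Cdkn1c.

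Cdkn1c belongs to the Cip/Kip family of inhibitors, whose other members are Cdkn1a (p21) and Cdkn1b (p27). Of the Cip/Kip transcripts summed in TPM, Cdkn1c made up 74.7% to 85.6% in Post T libraries against 9.47% to 14.5% in their controls. Its share was 28.8% to 34.8% in On T libraries against 8.41% to 10.9% in theirs. The sum itself was 257 to 422 TPM in Post T against 155 to 215 in controls, but 83.9 to 109 TPM in On T against 126 to 233 in controls. The family total was thus higher in Post T and lower in On T, with no overlap in either comparison.

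The other 2 inhibitors fell where Cdkn1c was higher. Cdkn1a averaged 12.9 ± 2.38 TPM in Post T and 32.03 ± 15.99 TPM in its controls (SD, n = 4 each; log2 fold change of counts -1.29, edgeR adjusted p = 0.0187). In On T it averaged 7.40 ± 1.94 TPM, against 65.8 ± 33.7 TPM in its controls (log2 -3.14, edgeR adjusted p = 3.86e-05). Cdkn1b averaged 49.3 ± 1.18 TPM in Post T and 136 ± 22.8 TPM in its controls (log2 -1.37, edgeR adjusted p = 9.64e-07). In On T Cdkn1b averaged 60.8 ± 7.04 TPM, against 92.5 ± 13.8 TPM in its controls (log2 -0.57, edgeR adjusted p = 0.00622). The fall of Cdkn1a was smaller in Post T than in On T and that of Cdkn1b larger, and both differences of effect passed the test (log2 1.85 and -0.80, edgeR adjusted p = 0.0456 and 0.0152).

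In the list of 17 cell cycle inhibitors, cyclin-dependent kinases and cyclins, all 17 were tested, and 4 fell in Post T and 0 rose, where over all tested genes 4.81% fell and 7.49% rose. In On T 4 fell and 1 rose, where over all tested genes 5.03% fell and 4.24% rose. The Ink4 inhibitors Cdkn2a (p16 and p19Arf) and Cdkn2b (p15) fell in both contrasts, by 1.13 and 3.50 on the log2 scale in Post T (edgeR adjusted p = 0.00656 and 7.81e-09) and by 1.26 and 3.53 in On T (edgeR adjusted p = 0.00353 and 8.95e-09). Cdkn2c (p18) was the member that rose in On T (log2 0.37, edgeR adjusted p = 0.0431). No kinase or cyclin of the list passed the test in either contrast. The list's median log2 fold change was -0.16 in Post T and 0.01 in On T, against -0.01 over all genes in both.

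**Figure D2:**
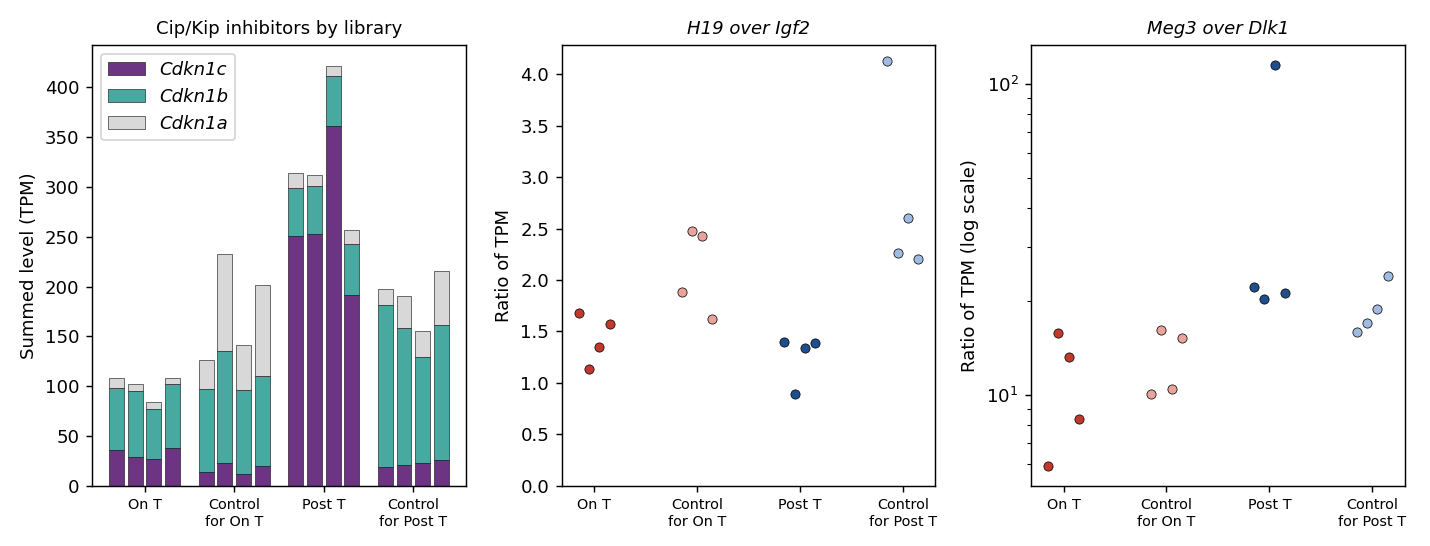
Left, TPM of Cdkn1c, Cdkn1b and Cdkn1a stacked in 1 bar per ovary; middle and right, the ratio of H19 to Igf2 and of Meg3 to Dlk1 in TPM (the last on a log axis), 1 point per ovary. The Cdkn1c share of a bar lies between 74.7% and 85.6% in Post T and between 8.41% and 14.5% in the 2 control groups.

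The genes whose profile over the 16 libraries was closest to that of Cdkn1c were found by the root mean square difference of log2 CPM (counts scaled to library size), each gene centred on its own mean, among 13729 genes. They were Stac2, Hpse, Trim29, Il1a and Hk3, with differences of 0.27, 0.35, 0.39, 0.40 and 0.41, against a median of 1.65 over the genes compared. Hpse, which encodes heparanase, averaged 25.7 ± 2.82 TPM in Post T and 2.26 ± 0.697 TPM in its controls, and 3.81 ± 1.03 TPM in On T and 1.56 ± 0.341 TPM in its controls (SD, n = 4 each). Hk3, a hexokinase, averaged 25.4 ± 4.19 TPM in Post T and 2.82 ± 0.656 TPM in its controls. Il1a, which encodes the cytokine interleukin 1 alpha, averaged 5.46 ± 1.12 TPM in Post T and 0.64 ± 0.289 TPM in its controls. Likeness over 16 libraries in 4 groups follows the group means, and it was computed on the same libraries that put Cdkn1c forward.

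Some macrophage markers moved in the same samples as Cdkn1c. Of the 6 markers, 4 rose in Post T, namely Gpnmb (log2 4.12), Cd68 (2.61), Itgam (1.21) and Csf1r (1.04), and 2 rose in On T, Gpnmb (2.68) and Cd68. Over all tested genes 7.49% rose in Post T and 4.24% in On T. In On T only 3 of the 6 had a positive log2 fold change, and the median of the 6 was -0.07. Within groups the order of the libraries varied. In Post T the library with the highest Cdkn1c, replicate 3 at 361 TPM, had the highest macrophage sum, 1162 TPM, and the lowest, replicate 4 at 192 TPM, the lowest sum, 838 TPM. In On T the highest macrophage sum, 199 TPM in replicate 2, went with 29.4 TPM of Cdkn1c, below replicates 1 and 4. Control for On T replicate 2 had the highest Cdkn1c of its group, 23.0 TPM, and the lowest macrophage sum, 48.9 TPM. Control for Post T replicate 4 had the highest Cdkn1c of its group, 25.4 TPM, and a macrophage sum of 96.3 TPM, where replicate 3 had 162 TPM. Whether the 2 measures are related was not tested.

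Around Cdkn1c lie other genes of the imprinted cluster on chromosome 7. Slc22a18, which encodes a membrane transporter and starts 12.7 kb away, was on the list of imprinted neighbours. It averaged 1.27 ± 0.160 TPM in Post T and 0.43 ± 0.198 TPM in its controls (SD, n = 4 each; log2 1.67, edgeR adjusted p = 0.002), on counts of 39 to 45 and 7 to 22 per library. In On T it averaged 0.54 ± 0.210 TPM, against 0.31 ± 0.104 TPM in its controls, and did not pass the test. The levels of Slc22a18 are low beside those of Cdkn1c.

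A window of 500 kb on each side of the Cdkn1c start, chosen after the values were seen, held 17 other tested genes. In On T their log2 fold changes ran from -0.75 to 0.80. In Post T they ran from -1.79 to 1.75. The values farthest from 0 in Post T were those of Slc22a18, Tnfrsf26 (1.75, at 167.7 kb), Mrgpre (1.13, at 323.4 kb) and Dhcr7 (-1.79, at 362.1 kb). Dhcr7 encodes the last enzyme of cholesterol synthesis in the Kandutsch-Russell route, and Tnfrsf26 a receptor of the tumour necrosis factor family. Cd81 and Nap1l4, neighbours with much higher levels, were close to 0. Cd81 averaged 323 ± 31.8 TPM in Post T and 321 ± 12.7 TPM in its controls, and Nap1l4 97.4 ± 7.66 TPM in Post T and 104 ± 4.98 TPM in its controls (SD, n = 4 each).

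**Figure D3:**
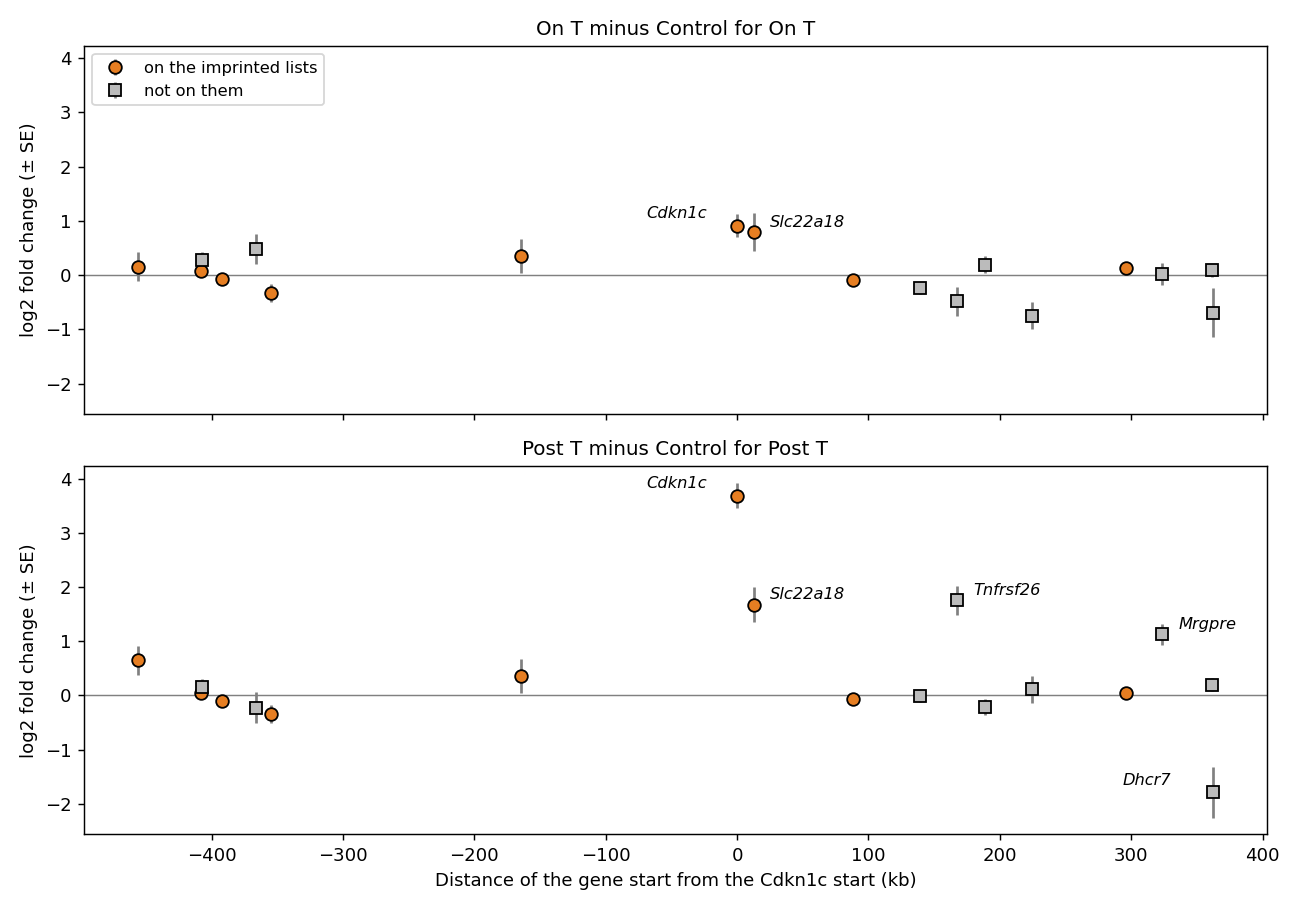
Log2 fold change of counts (points, with SE bars) of Cdkn1c and the 17 tested genes within 500 kb, against distance of the gene start from that of Cdkn1c in kb, for On T (upper panel) and Post T (lower panel), each against its controls. Circles are genes of the imprinted lists and squares other genes. Cdkn1c stands at 3.69 in Post T and Slc22a18, 12.7 kb away, at 1.67.

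H19, a maternally expressed long non-coding RNA, lies on the minus strand at chr7:142575529-142578143 of GRCm38, 88.7 kb from Igf2. Its levels in Post T libraries 1 to 4 were 9.54, 9.25, 12.8 and 12.65 TPM, against 18.5, 14.8, 20.1 and 14.0 TPM in their controls. Its levels in On T libraries 1 to 4 were 12.8, 16.3, 8.87 and 13.3 TPM, against 14.6, 13.4, 12.2 and 11.6 TPM in their controls. Every Post T library lay below every one of its controls on the TPM scale, whereas On T and its controls overlapped.

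H19 averaged 11.1 ± 1.92 TPM in Post T and 16.9 ± 2.94 TPM in its controls (SD, n = 4 each). The log2 fold change of counts was -0.58 (SE 0.19, 95% interval -0.99 to -0.17). In CPM the Post T group and its controls overlapped. In On T the log2 fold change was -0.02 (SE 0.19, 95% interval -0.43 to 0.39). The older controls were above the younger ones by 0.39 (SE 0.19, edgeR adjusted p = 0.519), and the Post T libraries overlapped in level with both younger groups. With On T replicate 2 and Control for Post T replicate 1 left out the Post T fold change was -0.44.

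The 5 genes with profiles nearest to that of H19 were Gas5, Zfp963, Zfas1, Snhg8 and Kin, at differences of 0.18 to 0.22 against a median of 0.41. Gas5, Zfas1 and Snhg8 are host genes of small nucleolar RNAs. Gas5 averaged 455 ± 53.3 TPM in Post T and 582 ± 20.4 TPM in its controls, and 524 ± 67.7 TPM in On T and 499 ± 33.6 TPM in its controls (SD, n = 4 each). H19 varied little over the 16 libraries (0.34 about its own mean on the log2 scale), so closeness to it is also closeness to a nearly level profile.

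H19 and Igf2 each host a microRNA. The mature forms are shown because they are the known processed products of these hosts. The hairpin of miR-675 lies inside an annotated exon of H19, and that of miR-483 lies outside the annotated exons of Igf2. Capitals mark the seed, bases 2 to 8, and the sequences are those of RefSeq for GRCm38.p6, 5′ to 3′. None of the 4 shares its seed with another.
miR-675-5p: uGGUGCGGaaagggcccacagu
miR-675-3p: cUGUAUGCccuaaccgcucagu
miR-483-5p: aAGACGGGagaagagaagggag
miR-483-3p: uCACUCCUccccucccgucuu
The miR-675-5p lies on the minus strand at chr7:142577112-142577133 and miR-483-3p at chr7:142654932-142654952. Libraries of poly(A) RNA do not measure mature microRNAs, so the levels given are those of the host transcripts.

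Igf2, the paternally expressed insulin-like growth factor 2, lies at chr7:142650766-142666816 on the minus strand. The 4 Post T libraries had 6.82, 10.4, 9.57 and 9.13 TPM, against 4.48, 6.55, 7.74 and 6.32 TPM in their controls. The 4 On T libraries had 7.62, 14.3, 6.58 and 8.50 TPM, against 7.77, 5.40, 5.04 and 7.20 TPM in their controls. In both comparisons the treated group averaged higher and the groups overlapped.

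The log2 fold change of Igf2 was 0.51 in Post T (SE 0.21, 95% interval 0.06 to 0.96, edgeR adjusted p = 0.155) and 0.52 in On T (SE 0.21, 95% interval 0.07 to 0.97, edgeR adjusted p = 0.154). Neither passed the test over all genes. Without On T replicate 2, the highest library at 14.3 TPM, the On T value was 0.33. Another annotated protein-coding gene, Gm49394, covers 62.8% of the Igf2 exon bases on the same strand. It received 0 to 4 counts per library, and the split of shared reads between the 2 is uncertain.

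The ratio of H19 to Igf2 in TPM combines both differences. It was 0.89 to 1.40 in Post T libraries against 2.21 to 4.13 in their controls, with no overlap. In On T it was 1.14 to 1.68 against 1.62 to 2.47 in controls, where the groups overlapped slightly. The ratio was formed after the values of both genes were seen and is given as a description.

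Of 17 tested partners of insulin-like signalling (18 listed), 1 fell in Post T and 0 rose (12.3% of all tested genes called), and 1 rose in On T and 0 fell (9.27% called). Igfbp3, an insulin-like growth factor binding protein, averaged 13.2 ± 1.99 TPM in Post T and 27.8 ± 4.59 TPM in its controls (SD, n = 4 each; log2 -1.04, edgeR adjusted p = 0.0151). Igfbp6, another, averaged 195 ± 66.0 TPM in On T and 116 ± 9.01 TPM in its controls (log2 0.75, edgeR adjusted p = 0.00795). Igf2r, the receptor that clears Igf2 and is itself imprinted, and Igf1r, through which Igf2 signals, did not pass the test in either contrast. Igf2r averaged 20.4 ± 1.11 TPM in Post T and 17.9 ± 3.09 TPM in its controls, and Igf1r 23.2 ± 1.66 TPM in Post T and 25.4 ± 5.45 TPM in its controls. Igf1 was not called by counts in Post T, with means of 74.7 CPM and 70.7 CPM in its controls. In TPM it averaged 41.4 ± 1.61 in Post T and 26.2 ± 4.69 in its controls, with no overlap. The cause of this gap between the scales was not tested.

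Meg3 and Dlk1 lie 88.2 kb apart on the plus strand of chromosome 12. Meg3, a maternally expressed long non-coding RNA, spans chr12:109541001-109571726. Post T libraries 1 to 4 had 53.3, 49.6, 104 and 60.7 TPM, against 24.9, 56.0, 43.2 and 42.2 TPM in their controls. On T libraries 1 to 4 had 26.9, 58.2, 36.4 and 35.0 TPM, against 47.9, 30.8, 37.7 and 34.0 TPM in their controls. Post T replicate 3, the 28-week mouse with the highest Cdkn1c, stood above the other 15 libraries, and the rest of its group overlapped the controls.

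Meg3 averaged 66.9 ± 25.2 TPM in Post T and 41.6 ± 12.8 TPM in its controls (SD, n = 4 each). Its log2 fold change was 0.64 (SE 0.23, 95% interval 0.15 to 1.14, edgeR adjusted p = 0.089), which did not pass the test, and it was 0.37 without Post T replicate 3. In On T it was -0.01 (SE 0.23, 95% interval -0.51 to 0.48, edgeR adjusted p = 0.984). Meg3 hosts miR-770 and miR-1906 in annotated exons.

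Dlk1, a paternally expressed membrane protein related to Notch ligands, spans chr12:109452823-109463336. It was the lowest of the 10 genes in every Post T library and every one of their controls. Across Post T libraries 1 to 4 it was at 2.39, 2.44, 0.90 and 2.84 TPM, against 1.56, 3.28, 2.28 and 1.75 TPM in their controls. Across On T libraries 1 to 4 it was at 4.54, 3.68, 2.74 and 4.18 TPM, against 4.76, 1.90, 3.60 and 2.22 TPM in their controls. The groups overlapped in both comparisons.

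The log2 fold change of Dlk1 was -0.09 in Post T (SE 0.34, 95% interval -0.81 to 0.63, edgeR adjusted p = 0.923) and 0.23 in On T (SE 0.33, 95% interval -0.47 to 0.93, edgeR adjusted p = 0.737). These intervals are the widest of the set and rest on 37 to 276 counts per library. Leaving out single libraries moved the On T value between 0.06 and 0.57. The ratio of Meg3 to Dlk1 in TPM was 20.3 to 116 in Post T against 16.0 to 24.1 in its controls, and 5.92 to 15.8 in On T against 10.1 to 16.2 in its controls. The value of 116 came from Post T replicate 3, which had both the highest Meg3 and the lowest Dlk1 of its group. All 13 listed genes of the Notch pathway were tested. By edgeR 0 passed in either contrast, where 12.3% of all tested genes were called in Post T and 9.27% in On T. Under an unadjusted p of 0.05 were 2 of the 13 in Post T and 1 in On T. The shares over all tested genes were 22.9% in Post T and 22.3% in On T. The median log2 fold change of the 13 was 0.05 in Post T and 0.10 in On T.

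Farther along the same cluster, Dio3 encodes the deiodinase that inactivates thyroid hormone. It was on the list of imprinted neighbours and rose in both contrasts. It averaged 18.5 ± 3.23 TPM in Post T and 9.08 ± 3.53 TPM in its controls (SD, n = 4 each; log2 1.10, edgeR adjusted p = 0.00341). In On T it averaged 16.0 ± 4.197 TPM, against 5.0 ± 0.614 TPM in its controls (log2 1.63, edgeR adjusted p = 0.000283). Of the 29 imprinted neighbours of the 10 genes, 21 were tested. In Post T 2 rose, Dio3 and Slc22a18, and 0 fell, where 12.3% of all tested genes were called. In On T 1 rose, Dio3, and 0 fell, where 9.27% of all tested genes were called. Their median log2 fold change was 0.04 in Post T and 0.08 in On T.

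Among the growth-restraining genes, Grb10 is an adaptor protein that dampens insulin and insulin-like growth factor receptors. It lies at chr11:11930508-12038683 on the minus strand. The 4 Post T libraries had 20.8, 20.99, 19.8 and 19.8 TPM, against 18.2, 26.0, 26.5 and 23.4 TPM in their controls. The 4 On T libraries had 15.7, 33.1, 20.3 and 19.98 TPM, against 22.9, 25.8, 20.3 and 23.3 TPM in their controls. The Post T libraries were nearly equal to one another, and On T replicate 2 was the highest of all 16 libraries. Grb10 had a log2 fold change of -0.16 in Post T (SE 0.15, edgeR adjusted p = 0.608) and -0.05 in On T (SE 0.15, edgeR adjusted p = 0.873), and the On T value was -0.28 without replicate 2.

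Plagl1 (also Zac1), a zinc finger transcription factor expressed from the paternal copy that is known to act on other imprinted genes, lies at chr10:13060504-13131694 on the plus strand. In Post T libraries 1 to 4 it was at 39.1, 40.7, 33.3 and 33.9 TPM, against 21.2, 44.8, 34.4 and 30.3 TPM in their controls. In On T it ranged from 27.9 to 33.75 TPM, against 30.3 to 35.8 TPM in its controls. The spread was widest among the older controls, where replicate 1 was lowest and replicate 2 highest. Plagl1 had a log2 fold change of 0.23 in Post T (SE 0.14, edgeR adjusted p = 0.347) and -0.06 in On T (SE 0.14, edgeR adjusted p = 0.835). Without Control for Post T replicate 2 the Post T value was 0.42 and passed the test (adjusted p = 0.0237).

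Mest (also Peg1), a paternally expressed gene of the alpha/beta hydrolase family, lies at chr6:30723547-30748465 on the plus strand. Mest levels were, in Post T libraries 1 to 4, 8.74, 6.18, 6.44 and 7.58 TPM, against 11.2, 7.69, 10.8 and 10.3 TPM in their controls. Mest levels were, in On T libraries 1 to 4, 9.22, 16.8, 9.81 and 9.24 TPM, against 7.21, 11.3, 8.85 and 11.2 TPM in their controls. Post T averaged lower than its controls with some overlap, and On T replicate 2 stood far above the other On T libraries. Mest had a log2 fold change of -0.53 in Post T (SE 0.21, 95% interval -0.98 to -0.07, edgeR adjusted p = 0.138) and 0.26 in On T (SE 0.21, edgeR adjusted p = 0.524), or 0.03 without On T replicate 2. The difference of the effects was -0.79 (SE 0.30, edgeR adjusted p = 0.217). Copg2, on the opposite strand, overlaps 23.1% of the Mest exon bases and held 1702 to 4258 counts per library. The use of strand in counting is not given in the sources used here, so the split of reads between the 2 genes is uncertain.

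Peg3, a paternally expressed zinc finger protein, lies at chr7:6703892-6730431 on the minus strand and was a low member. It ranged from 2.51 to 3.93 TPM in Post T against 2.45 to 4.74 TPM in its controls, and from 3.21 to 4.97 TPM in On T against 2.53 to 4.74 TPM in its controls. The groups overlapped almost entirely. Peg3 had a log2 fold change of -0.02 in both contrasts (SE 0.19, 95% interval -0.41 to 0.38 in Post T and -0.42 to 0.38 in On T; edgeR adjusted p = 0.978 and 0.965).

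Ndn, which encodes necdin, a paternally expressed member of the MAGE family that restrains cell growth, lies at chr7:62346569-62350262 on the plus strand. In On T libraries 1 to 4 it was at 16.4, 18.3, 16.25 and 15.7 TPM, against 14.0, 12.9, 13.75 and 13.1 TPM in their controls. In Post T libraries 1 to 4 it was at 12.6, 12.4, 12.0 and 11.6 TPM, against 12.3, 12.4, 12.6 and 11.1 TPM in their controls. Every On T library lay above every one of its controls, while Post T and its controls coincided.

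Ndn averaged 16.7 ± 1.14 TPM in On T and 13.4 ± 0.524 TPM in its controls (SD, n = 4 each). It rose by 0.32 on the log2 scale in On T (SE 0.09, 95% interval 0.14 to 0.50, edgeR adjusted p = 0.0279). In Post T the log2 fold change was 0.04 (SE 0.09, 95% interval -0.15 to 0.22, edgeR adjusted p = 0.868). The difference between the effects was -0.28 (SE 0.12, edgeR adjusted p = 0.291), so a difference between the contrasts was not shown. The On T call rests on single libraries, for it ended without On T replicate 1 (adjusted p = 0.0651), On T replicate 2 (0.0674), Control for On T replicate 2 (0.0971) or Control for On T replicate 4 (0.0927). In the same On T libraries the stromal fibroblast markers Tcf21 (log2 0.68) and Pdgfra (0.63) and the smooth muscle markers Acta2 and Myh11 rose and the stromal marker Col1a1 fell (-0.63). Of the 6 stromal and 5 smooth muscle markers, 2 of each rose, where over all tested genes 4.24% rose and 5.03% fell in On T. The summed smooth muscle level was 1118 to 2307 TPM in On T against 924 to 1044 TPM in its controls. The summed stromal level overlapped, at 524 to 848 TPM in On T against 526 to 611 TPM in its controls. On T replicate 2 had the highest of both sums. The part of these markers in the Ndn result was not tested.

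**Figure D4:**
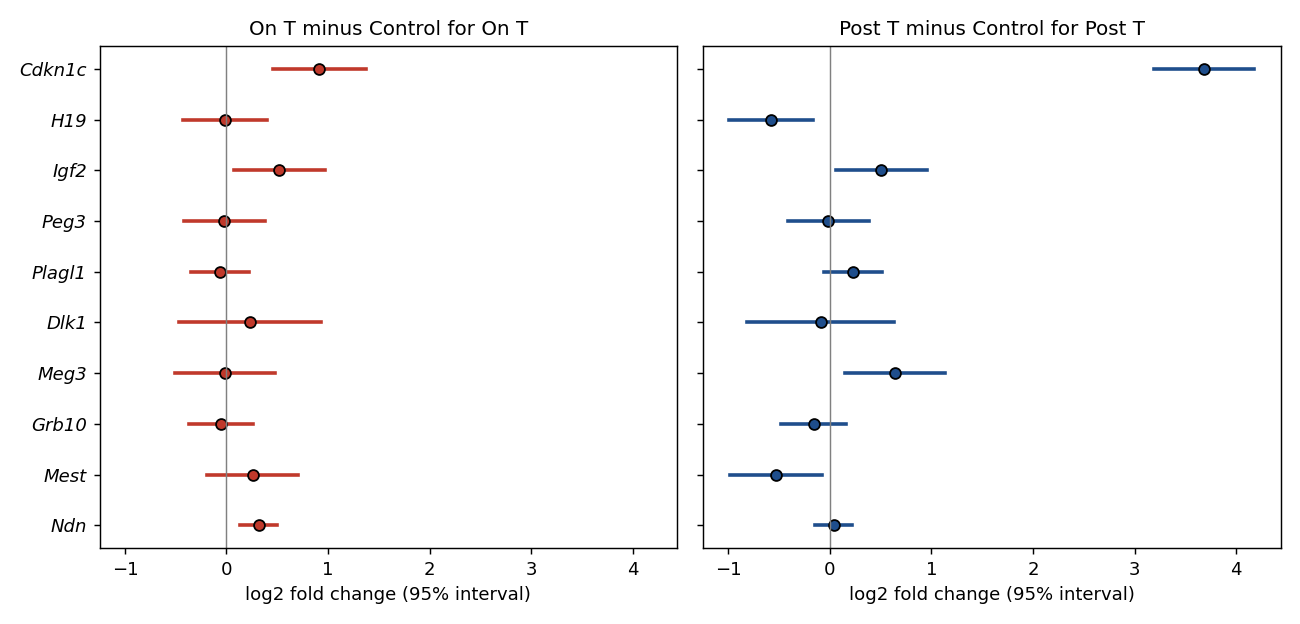
Log2 fold change of counts (points) with its 95% interval (bars) for each of the 10 genes, for On T (left) and Post T (right), each against its own controls. Cdkn1c lies at 0.91 in On T and 3.69 in Post T, Ndn at 0.32 in On T, and the other values lie between -0.58 and 0.64.

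Of the 8 genes given a test, 1 rose in On T (Ndn) and 0 fell, with 2 under an unadjusted p of 0.05, where 9.27% of all tested genes were called. In Post T edgeR called 0 of the 8, with 3 under an unadjusted p of 0.05, where 12.3% of all tested genes were called. For the difference between the effects it called 0 of the 8, with 2 under an unadjusted p of 0.05, where 3.25% of all genes were called, 2.93% higher and 0.324% lower. Over all tested genes the shares under an unadjusted p of 0.05 were 22.3% in On T, 22.9% in Post T and 14.3% for the difference. The same counts of the 8 held with On T replicate 2 and Control for Post T replicate 1 left out. In TPM, the libraries of 2 of the 10 genes did not overlap in On T (background 13.7%), and the same number did not in Post T (background 14.7%). The median log2 fold change of the 10 was 0.11 in On T and 0.01 in Post T, against -0.01 over all genes in both. The names having been chosen with these results known, nothing is read from the counts. Between older and younger controls 0 of the 10 were called by edgeR at an adjusted p under 0.05, where the background was 0% with 1892 genes under an unadjusted p of 0.05, none of them among the 10, and DESeq2 called 173 genes. In TPM 1 of the 10, Ndn, did not overlap between those control groups (background 4.53%), with older controls lower.

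Imprinted genes elsewhere in the genome gave a wider view. Of 30 listed, 26 were tested, and in Post T 1 rose and 1 fell, where 12.3% of all tested genes were called. In On T 2 rose and 1 fell, where 9.27% of all tested genes were called. H13, which encodes a signal peptide peptidase, fell in both, averaging 75.6 ± 10.4 TPM in Post T and 94.8 ± 12.98 TPM in its controls (log2 -0.30, edgeR adjusted p = 0.0467), and 84.0 ± 2.58 TPM in On T and 104 ± 6.61 TPM in its controls (log2 -0.32, edgeR adjusted p = 0.0459; SD, n = 4 each). Sfmbt2, a Polycomb group gene, rose in Post T (log2 0.59, edgeR adjusted p = 0.0407). Its level was low, at 0.31 to 0.61 TPM in Post T against 0.33 to 0.41 TPM in its controls, and the groups overlapped. Dcn, the matrix proteoglycan decorin, and Sgce, epsilon-sarcoglycan, rose in On T (log2 0.94 and 0.37, edgeR adjusted p = 0.0141 and 0.0343). Dcn was at 218.15 to 555 TPM in On T against 166 to 218.27 TPM in its controls. These groups overlapped, and On T replicate 2 was highest. Sgce was at 64.4 to 70.6 TPM in On T against 45.1 to 60.4 TPM in its controls. The median of the list was 0.05 in Post T and 0.18 in On T.

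Of 14 genes that lay down, read or keep DNA methylation at imprinted regions, 13 were tested, and by edgeR 1 rose in Post T (12.3% of all tested genes called) and 0 were called in On T (9.27%), with 1 under an unadjusted p of 0.05 in each. Over all tested genes 22.9% were under that unadjusted p in Post T and 22.3% in On T. The gene that rose was Dnmt3a, a de novo DNA methyltransferase, at log2 0.44 on the scale of counts (edgeR adjusted p = 0.0141). In TPM it averaged 59.6 ± 11.9 in Post T and 24.8 ± 3.60 in its controls (SD, n = 4 each). The scales of counts and of TPM thus gave different sizes for Dnmt3a, and the cause was not tested.

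Promoter windows, from 250 bases before to 50 bases after an annotated start, were sought in RefSeq. Cdkn1c and H19 had none, so their promoters were not searched. The other 8 of the 10 genes had 15 windows in all. They were searched on both strands for TGACGTCA (the cAMP response element), TATAAA (the TATA box) and AGAACA (a half-site of the androgen receptor element), motifs chosen with the sequences in view. The 3 windows that hold a match are shown, with matches in capitals on the gene's strand. The cAMP response element was found in the Meg3 and Peg3 windows, 57 and 178 bases before the start, and in 1.79% of 32851 promoter windows of the genome. Overlapping TATA box letters, 1 copy on each strand, were found in the Meg3 window, and in 13.6% of windows. The androgen half-site letters were found once, reversed, 85 bases before the most distal Igf2 start, and in 19% of windows.
Meg3, chr12:109540746-109541045, plus strand: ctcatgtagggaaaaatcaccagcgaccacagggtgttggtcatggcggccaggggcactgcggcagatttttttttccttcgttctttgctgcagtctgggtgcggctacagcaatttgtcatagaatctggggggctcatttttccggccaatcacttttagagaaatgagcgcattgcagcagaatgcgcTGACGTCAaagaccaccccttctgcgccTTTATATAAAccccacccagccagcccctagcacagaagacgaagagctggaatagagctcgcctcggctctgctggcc
Peg3, chr7:6730370-6730669, minus strand: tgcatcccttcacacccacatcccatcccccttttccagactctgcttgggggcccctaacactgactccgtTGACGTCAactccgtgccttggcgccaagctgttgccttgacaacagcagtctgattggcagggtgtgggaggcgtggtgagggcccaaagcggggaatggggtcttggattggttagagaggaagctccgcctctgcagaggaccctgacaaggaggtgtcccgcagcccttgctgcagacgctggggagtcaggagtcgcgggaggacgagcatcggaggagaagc
Igf2, chr7:142666767-142667066, minus strand: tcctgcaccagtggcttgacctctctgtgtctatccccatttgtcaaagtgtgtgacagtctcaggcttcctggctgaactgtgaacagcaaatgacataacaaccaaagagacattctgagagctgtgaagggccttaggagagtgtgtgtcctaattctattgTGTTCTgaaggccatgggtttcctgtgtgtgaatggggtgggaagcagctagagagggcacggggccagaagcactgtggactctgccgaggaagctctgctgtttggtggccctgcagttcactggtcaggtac
A match describes letters only. Of the genes whose windows hold such letters, Igf2 averaged higher in both contrasts and Meg3 in Post T, without passing the test. Peg3 was level in both contrasts. Ndn, which rose in On T, had none of the 3 motifs in its window. Whether such letters bear on the levels was not tested.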

How the data were processed

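Poly(A) RNA of 16 mouse ovaries was turned into strand-marked libraries and read from both ends, per the labels. The submitters' processing notes name the build GRCm38, RSEM 1.3.3, STAR 2.7.8a, cutadapt 2.3 and FastQC 0.11.8. The deposited expected counts are the estimated counts per gene, not normalised, and all were whole numbers. The authors had scaled the deposited TPM values for transcript length and library size. The FPKM table was left out. The annotation release and the strand setting are not given in the sources used here.

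Counts of 18833 of 55426 genes that passed filterByExpr (minimum count 10) entered an edgeR 4.0.16 model (R 4.3.3) with TMM scaling and a mean for each of the 4 groups (common biological coefficient of variation 0.179). Contrasts were tested by the quasi-likelihood F test with Benjamini-Hochberg adjustment over all genes at 0.05. Fold changes and their errors come from counts, and levels from TPM. Each standard error was taken from the fold change and the square root of F. The members and the gene lists were chosen with earlier results of these data known. Listed genes are named where they were called, up to 4 with the smallest p per list and contrast, and values of a few others named beside them were chosen after they were seen. The 10 genes were all named. Likeness left out genes under a mean of 1 CPM and predicted genes. Positions came from GENCODE M21, in which 55154 identifiers (99.51%) were found. No pair of libraries was identical.

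Choices varied were the scaling (median-of-ratios), the filter (none, or 1 CPM in 4 libraries), the tool (DESeq2 1.42.0, or limma 3.58.1 on log2(TPM + 1)) and the libraries in the fit (only those compared, or without each in turn). A replicate block and an age term were also tried. The fit without 2 libraries at once was chosen after seeing the data. The fit was also tested on simulated data.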

Additional observations from a re-analysis of the deposited data

Results flagged for a closer look

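In 40 sets of 4 libraries, each gene in each group, 3 had a library far from its group by Dixon's gap ratio, and chance gives about 5% of sets. Peg3 was at 4.97 TPM in On T replicate 2, where the next On T library was at 3.34 TPM. Mest was at 16.76 TPM in the same library, where the next was at 9.81 TPM. Ndn was at 11.14 TPM in Control for Post T replicate 4, where the next library of that group was at 12.34 TPM.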

How the results depend on the processing

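Of 606 tested values of the 10 genes under an alternative, 599 stayed on the same side of the threshold, 5 lost a call, 2 gained one and 0 reversed a call. Among those 599, 65 changed sign with no call on either side. The log2 fold change of Cdkn1c ranged from 3.45 to 3.85 in Post T and from 0.77 to 1.06 in On T, and that of H19 from -0.70 to -0.44 in Post T. All 5 losses were of Ndn in On T, 4 of them by leaving out a library and the other with no filter (adjusted p = 0.0584, 0 of the 8 tested genes called). In Post T 1 of the 8 was called with a replicate block, Mest (log2 -0.53, adjusted p = 0.0239), and Plagl1 was called without Control for Post T replicate 2. Leaving out each library gave 0 to 1 of the 8 called in On T, 0 to 1 in Post T, 0 for the difference and 0 of the 10 for the controls. Over all genes it gave 1081 to 1764 calls in On T, 1753 to 2294 in Post T, 453 to 735 for the difference and 0 to 9 for the controls. On T had 1130 calls by limma, the difference 999 by DESeq2, and the controls 20 with no filter, 173 by DESeq2 and 1 with On T replicate 2 and Control for Post T replicate 1 both left out. The cause of these shifts was not tested. Of 8 treated libraries, 2 correlated best with the control of their own number, a count that cannot decide whether libraries were paired. The replicate block gave 1560 calls in On T and 2215 in Post T. It joined Post T replicates 1 and 4, 26 and 24 weeks old, to controls of 24 and 26 weeks. Post T replicates 1, 2 and 4 correlated best with a control of their own age, and replicate 3 did not. Pairing by age was not tested.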
